A study of Mus musculus with 6 samples.

Results

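A set of 32 genes of skeletal muscle contraction and muscle metabolism was examined in mouse tumors. The members were taken by gene symbol from the deposited expression table, which listed 21899 genes, and all 32 were found in it. By role they comprised 7 genes of the thin filament, 8 of the thick filament, 7 of the Z-disc and cytoskeleton, 5 of calcium release and uptake and 5 of energy and oxygen supply. The tumors arose from LLC-luc cells, a luciferase-marked derivative of the mouse Lewis lung carcinoma line, placed under the skin of male C57BL/6 mice in the left axillary region. The Laser group, which served as the control, was given saline and irradiated. The PC-La group was injected with phycocyanin (PC), a light-absorbing protein of Spirulina used here as a photosensitizer, and the SePC-La group with selenium-enriched phycocyanin (SePC), both before irradiation. All groups thus bore the same tumor line and all were irradiated, and no tumor without irradiation was analysed here. The labels give a 620 nm laser applied for 10 min, 4 h after an injection repeated every 5 days. There were 2 samples in each of the 3 groups, labelled lung cancer tissue, and nothing states that the 2 came from separate mice, so the p-values below measure only the spread between these samples, which may be technical.

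Skeletal muscle fibers contract when myosin heads of the thick filament pull on actin of the thin filament. The filaments are anchored at the Z-disc, and contraction is switched on when calcium leaves the sarcoplasmic reticulum and binds troponin. Each fiber type uses its own copies of these proteins, with Myh4, Myh1 and Myh2 encoding the fast heavy chains of type IIB, IIX and IIA fibers and Myh7 the slow one. These genes are expressed at very high levels in mature fibers, and a tumor growing under the skin lies close to host muscle. Their transcripts in a tumor sample are therefore read here as a measure of the host muscle that it holds. Which cells made them was not tested. In bulk samples, fewer cells of a type and less RNA per cell cannot be told apart.

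Control regions of muscle genes are known for binding MyoD-type factors at E-boxes, serum response factor at CArG boxes and MEF2 factors at AT-rich boxes. RefSeq promoter windows (GRCm38.p6) were matched by symbol for 25 of the 32 members, and the 250 bases before the annotated start were searched on both strands. A CArG box was found in 2 of the 25 members (8.0%) and in 1.6% of 27025 genes with a window, a MEF2 box in 5 (20.0%, against 3.4%), and the short E-box CANNTG in 22 (88.0%, against 69.3%). CArG boxes lie within no MEF2 box in the windows shown, and a match describes the letters only. The windows of Acta1 (chr8:123894776-123895025, minus strand), Myh1 (chr11:67199852-67200101, plus strand) and Myh4 (chr11:67237562-67237811, plus strand) are shown because these members were lower in both photosensitizer groups by the criterion used below and hold such boxes. The window of Eno3 (chr11:70656926-70657175, plus strand) is shown because Eno3 differed from them in its pattern. Each reads 5′ to 3′ toward the start, with CArG and MEF2 boxes in capitals.
Acta1: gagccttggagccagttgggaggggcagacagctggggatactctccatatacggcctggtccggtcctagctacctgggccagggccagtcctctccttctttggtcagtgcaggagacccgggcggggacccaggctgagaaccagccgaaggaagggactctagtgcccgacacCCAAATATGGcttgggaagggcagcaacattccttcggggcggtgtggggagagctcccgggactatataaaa
Myh1: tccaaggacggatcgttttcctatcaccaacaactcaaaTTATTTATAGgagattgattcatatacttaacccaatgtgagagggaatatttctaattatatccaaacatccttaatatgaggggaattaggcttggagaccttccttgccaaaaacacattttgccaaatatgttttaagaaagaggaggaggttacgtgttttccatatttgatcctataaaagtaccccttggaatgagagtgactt
Myh4: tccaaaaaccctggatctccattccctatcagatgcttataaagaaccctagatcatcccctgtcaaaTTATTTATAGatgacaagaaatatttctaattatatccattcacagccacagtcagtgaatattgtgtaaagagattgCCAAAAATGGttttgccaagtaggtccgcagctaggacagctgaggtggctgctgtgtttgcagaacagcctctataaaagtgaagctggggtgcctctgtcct
Eno3: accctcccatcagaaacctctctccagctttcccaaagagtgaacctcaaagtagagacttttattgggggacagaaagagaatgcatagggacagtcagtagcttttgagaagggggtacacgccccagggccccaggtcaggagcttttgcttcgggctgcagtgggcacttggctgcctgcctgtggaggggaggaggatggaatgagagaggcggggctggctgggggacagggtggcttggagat
The CArG box began 73 bases before the start in Acta1 and 104 bases before it in Myh4. The MEF2 box began 211 bases before the start in Myh1 and 182 bases before it in Myh4, with the same letters in both. Eno3 had no match to either box in this window. Ckm and Mylpf had none in theirs, though both were also lower in both photosensitizer groups by the criterion. Pvalb, Ttn and Xirp2 held a MEF2 box but were too low to enter that fit. Whether the boxes go with the pattern was not tested.

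Levels are given as FPKM (fragments per kilobase of exon, scaled to library size), a unit that takes gene length into account, so levels of different genes can be set side by side. The reads recovered from the table ranged from 14447792 to 17649489 per sample. One read was therefore worth little, and for a gene at 0 reads the level that 3 reads would give is quoted as the limit (0.0262 to 0.26 FPKM over the members at 0). Such limits and the intervals below cover counting error only. The 2 Laser samples correlated at 0.946 over all genes past the filter on low values, against 0.992 for PC-La and 0.972 for SePC-La. Markers of the lung epithelium summed to 0.72 to 1.76 FPKM, whereas a list of 6 epithelial tumor genes summed to 188.5 to 277.1 FPKM. Nearly all of the latter was Krt18 (110.0 to 165.9 FPKM) and Krt8 (78.1 to 113.9 FPKM). The others, Cdh1, Krt19, Epcam and Krt7, were each at 1.17 FPKM or less. Laser 2 stood apart from the other 5 samples in the muscle genes. The values of both Laser samples are therefore given separately, and the group differences of the members also without Laser 2.

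The muscle transcripts were high in Laser 2, lower in Laser 1 and near 0 in all 4 samples given a photosensitizer. The 32 members summed to 50.8 FPKM in Laser 1, 275.0 in Laser 2, 21.3 and 20.8 with PC-La and to 33.6 and 32.02 with SePC-La. Most of the sum in the PC-La and SePC-La samples was a single gene, Eno3. Without Eno3 the remaining 31 members summed to 35.8 FPKM in Laser 1, 242.7 in Laser 2, 7.59 and 6.30 with PC-La and to 3.86 and 11.5 with SePC-La. Laser 1 then held 4.89 times, and Laser 2 held 33.2 times, the mean of the 4 PC-La and SePC-La samples. The 2 Laser samples themselves differed by 6.78-fold, more than Laser 1 differed from the mean of the other 4. As a share of all FPKM in a sample, these 31 genes made up 0.0128% in Laser 1 and 0.0819% in Laser 2, and 0.00127% to 0.00371% in the others. Without Eno3 the summed levels of PC-La and SePC-La overlapped, with both PC-La samples lying between SePC-La 1 and SePC-La 2, whereas with Eno3 both SePC-La samples were above both PC-La samples.

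**Figure D1:**
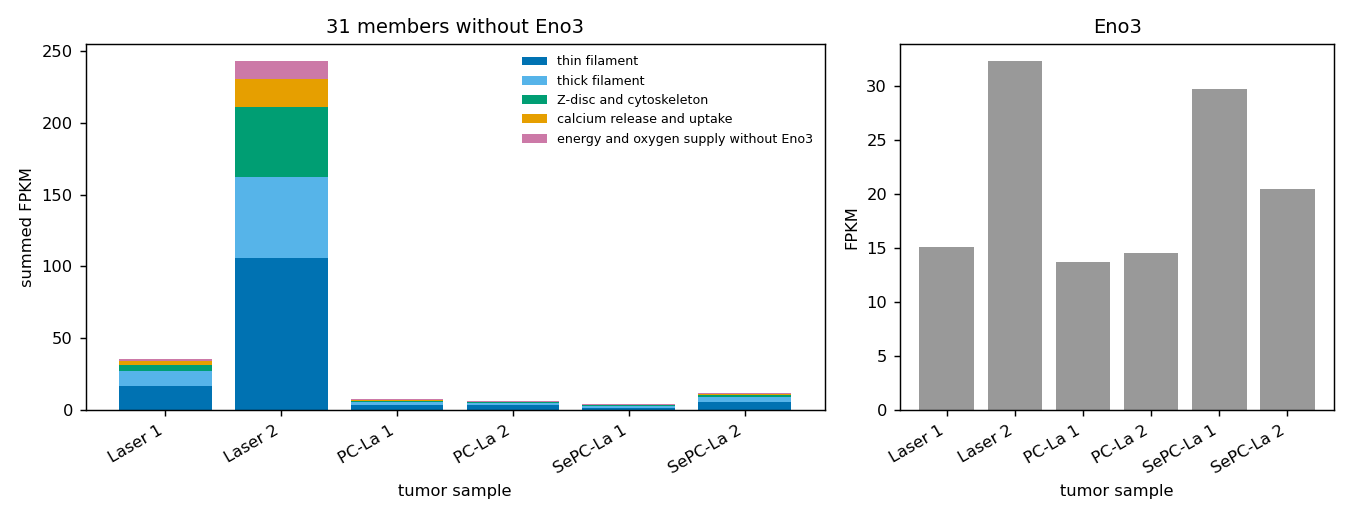
Summed FPKM per tumor sample. Left, stacked bars of the 31 members without Eno3, colored by role. Right, Eno3 alone on its own axis. Laser 2 reaches 242.7 and Laser 1 reaches 35.8 FPKM on the left, and the 4 photosensitizer samples stay between 3.86 and 11.5, whereas Eno3 on the right is at 13.7 to 32.3 FPKM in every sample.

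Counted over all 32 members, Laser 2 was above each of the other 5 samples for 28, where 20.0% of the 16808 genes above 0 in any sample did the same. Both Laser samples were above all 4 photosensitizer samples for 24 of the 32 members, against 5.90% of all genes. Laser 1 alone was above all 4 for 26 members, against 19.3% of all genes. In Laser 1, 12 members reached 1 FPKM, in Laser 2 24 did, and in the other samples 2, 2, 3 and 6 did. Members listed at 0 numbered 2 in Laser 1, 1 in Laser 2, 6 and 9 with PC-La, and 16 and 5 with SePC-La. Eno3 aside, SePC-La 1 thus held the fewest muscle transcripts and SePC-La 2 the most among the photosensitizer samples.

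**Figure D2:**
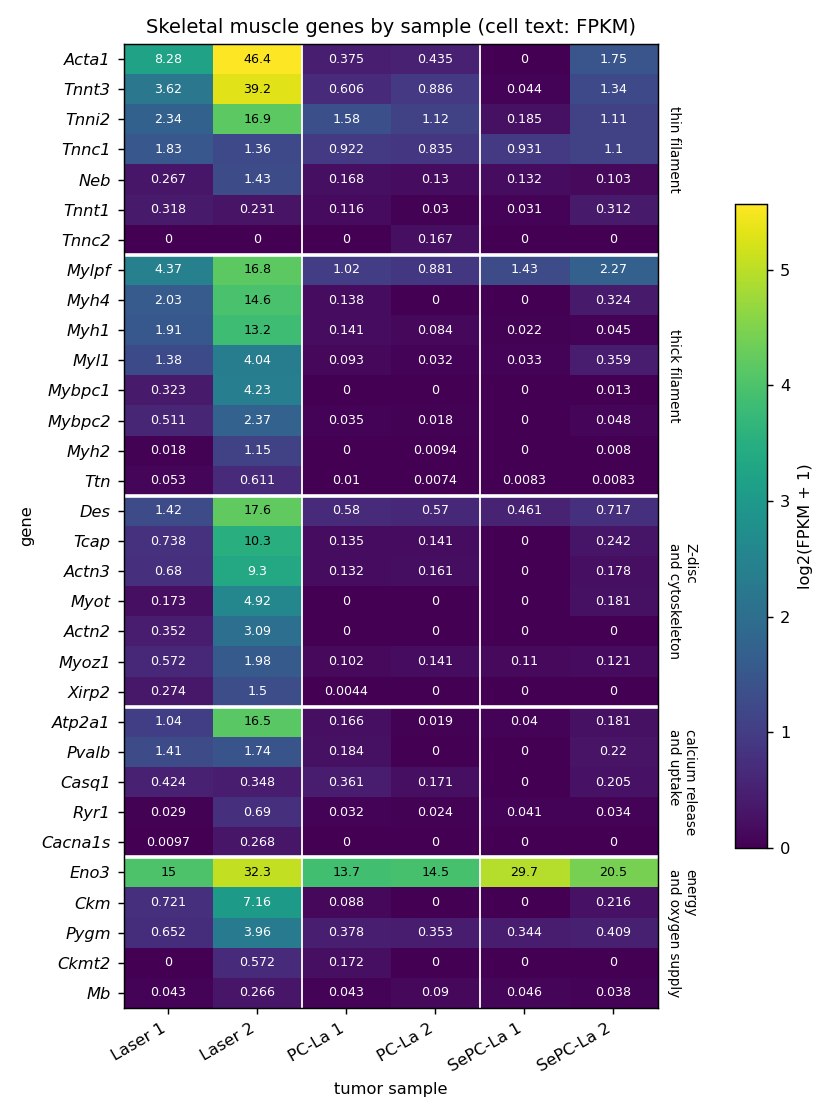
Level of each of the 32 members in each tumor sample. Rows are genes grouped by role and ordered by mean, columns are samples, color is log2(FPKM + 1) and the text in each cell is the FPKM. The Laser 2 column is bright for most rows, the Laser 1 column is weaker, and the other 4 columns are dark except for Eno3.

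In the thin filament, Acta1, the skeletal muscle actin, stood at 8.28 FPKM in Laser 1, 46.4 in Laser 2, 0.375 and 0.435 with PC-La and at 0 and 1.75 with SePC-La. Both Laser samples were above every other sample, and the 0 in SePC-La 1 allows up to 0.135 FPKM. Tnnt3, the fast troponin T that holds the troponin complex on tropomyosin, stood at 3.62 and 39.2 FPKM in Laser, 0.606 and 0.886 with PC-La and at 0.0437 and 1.34 with SePC-La. Tnni2, the fast inhibitory troponin I, stood at 2.34 and 16.9 FPKM in Laser, 1.58 and 1.12 with PC-La and at 0.185 and 1.11 with SePC-La. For both, Laser 2 was far above Laser 1, and Laser 1 was above the other groups without overlap. Neb, the giant ruler protein nebulin, stood at 0.267 and 1.43 FPKM in Laser and at 0.103 to 0.168 in the other 4 samples.

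The slow troponins did not follow this pattern. Tnnc1, the troponin C of slow and cardiac muscle, stood at 1.83 FPKM in Laser 1, 1.36 in Laser 2, 0.922 and 0.835 with PC-La and at 0.931 and 1.10 with SePC-La. Tnnt1, the slow troponin T, stood at 0.318 and 0.231 FPKM in Laser, 0.116 and 0.0303 with PC-La and at 0.0314 and 0.312 with SePC-La. In both genes Laser 1 was the higher Laser sample. Both Laser samples were above the rest for Tnnc1, and the groups overlapped for Tnnt1. Tnnc2, the fast troponin C, was listed at 0 in 5 samples, both Laser samples included, and at 0.167 FPKM (2 reads) in PC-La 2. This stood against the high levels of its partners Tnnt3 and Tnni2 in Laser 2. In the GENCODE M21 annotation, 74.0% of the exon bases of Tnnc2 are shared with Ube2c on the opposite strand, and whether the counting used strand is not stated, so the level of Tnnc2 is uncertain.

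In the thick filament, Myh4, the type IIB heavy chain, stood at 2.03 FPKM in Laser 1, 14.6 in Laser 2, 0.138 and 0 with PC-La and at 0 and 0.324 with SePC-La. Myh1, the type IIX heavy chain, stood at 1.91 and 13.25 FPKM in Laser, 0.141 and 0.0841 with PC-La and at 0.0218 and 0.0451 with SePC-La. The 2 fast chains were nearly equal within each Laser sample, and both Laser samples were above all the others. Myh2, the type IIA chain, stood at 0.0178 FPKM (2 reads) in Laser 1 and 1.15 (145 reads) in Laser 2, and at 0 to 0.00936 in the others.

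Heavy chain transcripts were mainly those of the fastest fiber types in both Laser samples. Of the FPKM of the 4 heavy chains Myh4, Myh1, Myh2 and Myh7, Myh4 took 51.3% in Laser 1 and 50.1% in Laser 2, and Myh1 took 48.3% and 45.6%. Myh2 took 0.45% and 3.96%. Myh7, the slow chain and not one of the 32 members, took 0 and 0.339%, from 0 and 15 reads. Heavy chain genes are near-identical in parts of their coding sequence, and reads that fit several of them may be split or dropped in counting, so these shares are approximate.

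Among the light chains, Mylpf, the regulatory light chain of fast fibers, stood at 4.37 FPKM in Laser 1, 16.8 in Laser 2, 1.02 and 0.881 with PC-La and at 1.43 and 2.27 with SePC-La. Myl1, the essential light chain of fast fibers, stood at 1.38 and 4.04 FPKM in Laser, 0.0926 and 0.0322 with PC-La and at 0.0334 and 0.359 with SePC-La. Mylpf and Eno3 were the 2 members whose mean over the 4 photosensitizer samples reached 1 FPKM. The myosin binding proteins brace the thick filament. Mybpc1, the slow form, stood at 0.323 and 4.23 FPKM in Laser and at 0, 0, 0 and 0.0127 in the others. Mybpc2, the fast form, stood at 0.511 and 2.37 FPKM in Laser and at 0 to 0.0476 in the others. Ttn, titin, the elastic protein that spans from Z-disc to M-line, stood at 0.0531 FPKM in Laser 1, 0.611 in Laser 2, 0.0104 and 0.0074 with PC-La and at 0.00826 and 0.0083 with SePC-La. For all of these both Laser samples were above the other 4.

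The Z-disc and cytoskeleton genes summed to 4.21 FPKM in Laser 1 and 48.6 in Laser 2, a ratio of 11.5. The ratio was 6.33 for the thin filament, 5.38 for the thick filament and 6.73 for calcium release and uptake. It was 2.69 for energy and oxygen supply, mostly Eno3, at 15.0 of 16.45 FPKM in Laser 1 and 32.3 of 44.2 in Laser 2. Ckm and Pygm of that role had ratios of 9.93 and 6.07. Des, desmin, the muscle intermediate filament, stood at 1.42 FPKM in Laser 1, 17.55 in Laser 2, 0.580 and 0.570 with PC-La and at 0.461 and 0.717 with SePC-La. Actn3, the alpha-actinin of fast fibers, stood at 0.680 and 9.30 FPKM in Laser, 0.132 and 0.161 with PC-La and at 0 and 0.178 with SePC-La. Actn2, its partner in all sarcomeres, stood at 0.352 and 3.09 FPKM in Laser and at 0 in all 4 other samples, which allows at most 0.0547 FPKM in each. Each of these 3 genes separated the Laser samples from the rest.

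Tcap, telethonin, which caps titin at the Z-disc, stood at 0.738 and 10.3 FPKM in Laser, 0.135 and 0.141 with PC-La and at 0 and 0.242 with SePC-La. Myoz1, a calcineurin-binding Z-disc protein, stood at 0.572 and 1.98 FPKM in Laser and at 0.102 to 0.141 in the others. Myot, myotilin, which binds actinin, stood at 0.173 FPKM (6 reads) in Laser 1, 4.925 (192 reads) in Laser 2, 0 in both PC-La samples, and 0 and 0.182 in SePC-La. Myot in Laser 1 lay within the range of SePC-La, so for this gene Laser 2 was the high sample. Xirp2, an actin-binding repeat protein, stood at 0.274 and 1.51 FPKM in Laser and at 0.00445 in PC-La 1, with the other 3 samples at 0.

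Among genes of calcium release and uptake, Atp2a1, the fast calcium pump SERCA1 of the sarcoplasmic reticulum, stood at 1.04 FPKM in Laser 1, 16.5 in Laser 2, 0.166 and 0.0192 with PC-La and at 0.0398 and 0.181 with SePC-La. Of its exon bases, 21.9% are shared with Rabep2 on the opposite strand. Pvalb, the calcium buffer parvalbumin of fast fibers, stood at 1.41 and 1.74 FPKM in Laser, 0.184 and 0 with PC-La and at 0 and 0.220 with SePC-La. Atp2a1 differed greatly between the 2 Laser samples while Pvalb was nearly equal in them, and both genes were lower in every photosensitizer sample. Ryr1, the calcium release channel, stood at 0.0291 FPKM (10 reads) in Laser 1, 0.690 (266 reads) in Laser 2 and 0.0245 to 0.0412 in the others, so Laser 1 was within the range of the photosensitizer samples. Cacna1s, the voltage sensor that opens Ryr1, was at 1 read in Laser 1, 31 reads in Laser 2 and 0 in the other 4. Casq1, calsequestrin, which stores calcium, stood at 0.424 and 0.349 FPKM in Laser, 0.361 and 0.171 with PC-La and at 0 and 0.206 with SePC-La, with the Laser and PC-La groups overlapping.

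Among energy and oxygen supply genes, Ckm, the muscle creatine kinase, stood at 0.721 FPKM in Laser 1, 7.16 in Laser 2, 0.0879 and 0 with PC-La and at 0 and 0.216 with SePC-La. Pygm, the muscle glycogen phosphorylase, stood at 0.652 and 3.96 FPKM in Laser, 0.378 and 0.353 with PC-La and at 0.344 and 0.409 with SePC-La. Both followed the contractile genes. Mb, myoglobin, the oxygen store of oxidative fibers, stood at 0.0426 FPKM (1 read) in Laser 1, 0.266 (7 reads) in Laser 2 and 0.0384 to 0.0896 in the others. Ckmt2, the mitochondrial creatine kinase, was at 0 in Laser 1, 0.572 FPKM (15 reads) in Laser 2, 0.172 in PC-La 1 and 0 in the other 3. These low counts separated no groups, and 31.9% of the exon bases of Mb are shared with genes on the opposite strand.

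Eno3, the muscle form of the glycolytic enzyme enolase, was an exception among the members. It stood at 15.0 FPKM in Laser 1, 32.3 in Laser 2, 13.7 and 14.5 with PC-La and at 29.7 and 20.5 with SePC-La. Laser 2 was again the highest, but Laser 1 lay just above PC-La and below SePC-La. Its level thus stayed high in samples whose contractile transcripts were near 0.

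The 2 samples of the Laser group were compared directly for the 27 members with more than 3 reads in Laser 1. The ratio of Laser 2 to Laser 1 had a median of 6.93 and ranged from 0.729 for Tnnt1 to 28.5 for Myot. For 24 of them reads could be recovered and an exact 95% binomial interval computed, and it lay above 1 for 20. Acta1 had a ratio of 5.61 (interval 4.83 to 6.54), Myh4 of 7.18 (6.17 to 8.38), Des of 12.3 (9.88 to 15.6), Atp2a1 of 15.9 (12.1 to 21.1) and Ryr1 of 23.7 (12.7 to 50.0). Eno3 had a ratio of 2.15 (1.91 to 2.41). The ratios were therefore not the same for all members beyond counting error. The interval included 1 for Tnnt1, Tnnc1 (ratio 0.742), Casq1 (0.822) and Pvalb (1.24, interval 0.703 to 2.22). These intervals compare 2 libraries and not conditions.

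**Figure D3:**
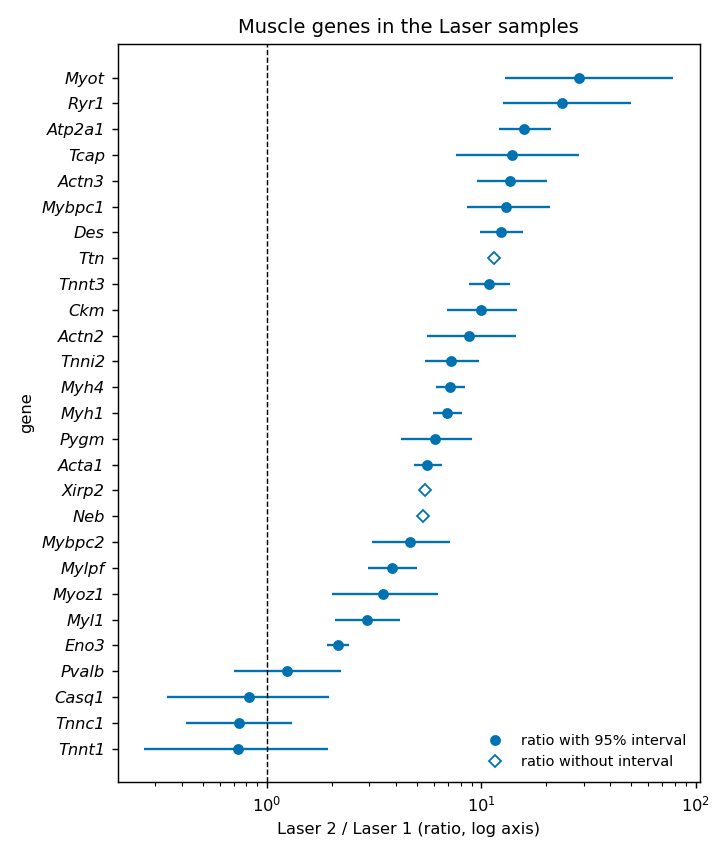
Ratio of the level in Laser 2 to that in Laser 1 for the 27 members with more than 3 reads in Laser 1, on a log axis. Filled points carry exact 95% binomial intervals of the reads, open diamonds are ratios of FPKM for 3 genes whose reads could not be recovered, and the dashed line marks equality. Most members lie between 2.15 and 28.5, and 4 intervals include 1.

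On the scale of log2(FPKM + 1), Laser 2 exceeded Laser 1 by more than 1 unit for 19 of the 32 members, where 0.875% of all genes above 0 did so. Laser 2 was under Laser 1 by more than 1 unit for 0 members, against 2.83% of all genes. In PC-La, 0 members differed upward by that much between sample 2 and sample 1 (0.0476% of all genes), and in SePC-La 2 did, Acta1 and Tnnt3 (1.45%). Most members were under 1 FPKM in the photosensitizer samples and could not differ by 1 unit on this scale, so the counts do not compare the spread within the groups. As a ratio, the 31 members without Eno3 differed between SePC-La 1 and SePC-La 2 as well, at 3.86 and 11.5 FPKM.

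Group differences were then tested with limma on log2(FPKM + 1), with the criterion of an absolute log2 difference over 1 and an unadjusted p under 0.05. Genes averaging 1 FPKM or more across the samples were tested, which left 14 of the 32 members, and 12 of these passed only because of their level in the Laser samples, so their direction was given by the filter. The other 18, among them Pvalb, Ttn and Mb, were too low to enter. In PC-La against Laser, 6 of the 14 were lower by the criterion, namely Acta1, Ckm, Myh1, Myh4, Mylpf and Tnnt3, and 0 were higher. Of all 10853 genes tested, 0.424% were lower and 0.866% were higher. In SePC-La against Laser the count was 7 lower, these 6 and Tnni2, and 0 higher, where 0.138% of all genes were lower and 0.544% higher. The 2 comparisons share the same Laser samples. No gene, member or not, had a Benjamini-Hochberg adjusted p under 0.05 by limma in any comparison. Of 10853 genes, 627 had an unadjusted p under 0.05 in PC-La against Laser, 1318 in SePC-La against Laser and 2637 between PC-La and SePC-La. Of the 14 members, 7, 7 and 0 were among them.

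For Acta1 the log2 difference was -3.90 (SE 0.87, adjusted p = 0.650 by limma) in PC-La and -3.66 (SE 0.87, adjusted p = 0.376) in SePC-La. For Myh4 it was -2.69 and -2.58 (SE 0.74), and for Tnnt3 -2.97 and -3.12 (SE 1.07). For Mylpf, which passed the filter without the Laser samples, it was -2.33 and -1.80 (SE 0.55). Ckm differed by -1.84 and -1.76 (SE 0.70), and Myh1 by -2.53 and -2.64 (SE 0.71). Tnni2 met the criterion in SePC-La, at -2.29 (SE 0.80), with -1.73 in PC-La. Des (-2.09 and -2.08, SE 0.92) and Atp2a1 (-2.46 and -2.43, SE 0.97) did not meet it, and for both the SE was larger than for Acta1. The adjusted p of these 9 genes ranged from 0.376 to 0.753. Eno3 differed by -0.61 in PC-La and 0.15 in SePC-La (SE 0.36). Fitted with no filter, Pvalb differed by -1.24 and -1.22 (SE 0.15), Ttn by -0.37 and -0.37 (SE 0.19) and Mb by -0.11 and -0.14 (SE 0.09), and the pseudocount of 1 understates changes of genes this low.

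The size of these differences moved with Laser 2. Without Laser 2 the 14 members had a median log2 difference of -0.67 for PC-La and -0.76 for SePC-La, against -2.03 and -2.04 with both samples. Over all 32 members, with no filter and both Laser samples, the median was -1.18 in each comparison. The median of all genes tested was at most 0.079 from 0 with or without Laser 2. Without Laser 2, PC-La differed in Acta1 (-2.73), Mylpf (-1.46), Myh1 (-1.39), Myh4 (-1.51), Tnnt3 (-1.41), Ckm (-0.72) and Tnni2 (-0.51). SePC-La differed in Acta1 (-2.48), Mylpf (-0.93), Myh1 (-1.50), Myh4 (-1.40), Tnnt3 (-1.56), Ckm (-0.64) and Tnni2 (-1.08). Fits that leave 1 sample in a compared group are given here as differences only. Counts from such fits appear only among the alternative settings below, where they are no test. A group reduced to 1 sample in this way is assumed to vary like the others. Without Laser 2 the fit thus leaves out the gap between the Laser samples. That gap was 2.35 log2 units for Acta1 and 3.12 for Tnnt3.

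**Figure D4:**
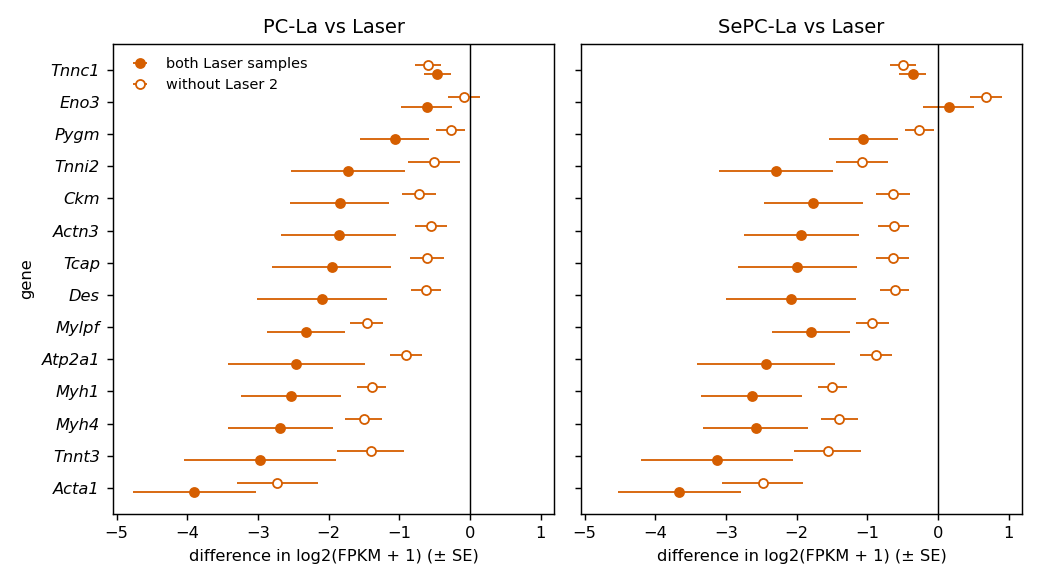
Difference from Laser in log2(FPKM + 1) for the 14 members past the filter, in PC-La (left) and SePC-La (right). Filled points use both Laser samples, open points leave out Laser 2, and bars are standard errors of the limma fit. The bars of open points hold no spread between Laser samples. Leaving out Laser 2 moves most genes toward 0, as for Acta1 in PC-La from -3.90 to -2.73.

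The 2 photosensitizer groups were compared in the same fit. In SePC-La against PC-La, 0 of the 14 members met the criterion in either direction, where 1.18% of all genes were higher and 1.80% lower. Most of the 14, such as Myh1, Des and Ckm, were under 1 FPKM in every sample of both groups. These could not differ by 1 unit on this scale, so the 0 says nothing about them. The median log2 difference was 0.02, and the pseudocount of 1 draws it toward 0. The member with the smallest adjusted p was Eno3, with a log2 difference of 0.77 (SE 0.36, adjusted p = 0.251 by limma), and both SePC-La samples were above both PC-La samples for it. Acta1 differed by 0.24 (SE 0.87) and Tnnt3 by -0.16 (SE 1.07). The standard errors of this fit include the spread of the 2 Laser samples. Without Laser 2 the differences were the same and the SE was 0.46 for Acta1 and 0.39 for Tnnt3, and Eno3 had an SE of 0.19 and an adjusted p of 0.0618 by limma. The count of members meeting the criterion was 0 in that fit too, under the same limit of low levels.

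Other muscle genes were taken from fixed lists. The lists were chosen with earlier results of these data known, so the counts are a description. They are to be read against the same shares of all genes. These were 20.0% highest in Laser 2 and 0.424% (PC-La) and 0.138% (SePC-La) lower by the criterion. Among 38 further sarcomere genes, 27 were highest in Laser 2, and 2 of the 10 that passed the filter were lower by the criterion in each photosensitizer group. These were Cryab, a small heat shock protein of the Z-disc, at 2.24 and 3.83 FPKM in Laser and 0.316 to 0.813 in the others, and Fhl1, a LIM protein, at 0.959 and 5.81 FPKM in Laser and 0.108 to 0.494 in the others. Lmod2, an actin nucleator, stood at 0.161 and 4.82 FPKM in Laser and at 0 to 0.0338 in the others. Of the listed tropomyosins, which many cells share, Tpm1 stood at 116.5 and 86.4 FPKM in Laser and 105.2 to 122.3 in the others, and Tpm2 at 26.0 and 31.6 FPKM in Laser and 23.8 to 28.8 in the others.

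Among 22 further genes of excitation-contraction coupling, 15 were highest in Laser 2 (20.0% of all genes), with 0 of 5 tested meeting the criterion against Laser. Among 11 slow fiber genes the figures were 6 and 0 of 3. Among energy metabolism genes 13 of 25 rows were highest in Laser 2, and 1 of 9 tested, Cox6a2, a heart and muscle subunit of cytochrome oxidase, was lower in PC-La and 0 in SePC-La. Cox6a2 stood at 1.03 and 4.83 FPKM in Laser, 0.282 and 0.590 with PC-La and at 1.22 and 0.674 with SePC-La, so Laser 1 lay within the range of SePC-La. Among 17 embryonic and myogenic factor genes 9 were highest in Laser 2, and 1 of 2 tested, Ankrd1, a stretch-responsive ankyrin protein, was lower in PC-La and 0 in SePC-La. Ankrd1 stood at 7.94 and 16.9 FPKM in Laser, 4.48 and 3.47 with PC-La and at 21.6 and 12.7 with SePC-La, and was higher in SePC-La than in PC-La by 1.83 log2 units (SE 0.39, adjusted p = 0.126 by limma). Of 8 muscle atrophy genes found, 3 were highest in Laser 2. Eda2r, a receptor of the TNF receptor family, was higher in PC-La, where 0.866% of all genes were, and 0 of 4 tested met the criterion in SePC-La. Eda2r stood at 3.39 and 1.01 FPKM in Laser, 5.38 and 5.67 with PC-La and at 0.764 and 1.73 with SePC-La. Beside Ankrd1, Eda2r and Mt1, the highest atrophy gene, met the criterion in SePC-La against PC-La. The log2 difference was -1.57 for Eda2r (SE 0.40, adjusted p = 0.130 by limma). For Mt1 it was 1.51 (SE 0.21, adjusted p = 0.0977 by limma). In that comparison 1.18% of all genes were higher and 1.80% lower.

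Markers of most other tissues near the tumor were not higher in Laser 2. Of 13 adipocyte genes 0 were highest in Laser 2, and their summed level was 16.2 FPKM in Laser 1, 3.80 in Laser 2, 9.90 and 21.9 with PC-La and at 4.52 and 83.4 with SePC-La. Adipoq, the adipocyte hormone adiponectin, was at 0 in Laser 2 and at 5.02 FPKM in SePC-La 2, the photosensitizer sample with the most muscle transcripts. Tendon and fascia genes summed to 7.12 and 1.27 FPKM in Laser and 1.04 to 8.34 in the others, with 1 of 8 highest in Laser 2. Smooth muscle genes summed to 30.8 and 20.6 FPKM in Laser and 24.7 to 35.6 in the others, with 1 of 10 highest in Laser 2. Cardiac genes summed to 4.14 and 1.67 FPKM in Laser and 3.47 to 4.60 in the others, with 0 of 9 highest there. No marker of endothelium (0 of 8), skin keratinocytes (0 of 12) or lung epithelium (0 of 9) was highest in Laser 2. Genes at 0 in every sample could not be highest. In any 1 sample at most 3 of the 12 skin genes and 4 of the 9 lung genes were above 0. The endothelium and skin sums were lowest in Laser 2, at 25.2 and 1.14 FPKM. Schwann cell and nerve genes summed to 22.8 FPKM in Laser 2 and 12.6 to 20.3 in the others, with 4 of 10 highest in Laser 2. Of the 6 epithelial tumor genes, 3 were highest in Laser 2. The part of muscle content in group differences of other genes was not tested.

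**Figure D5:**
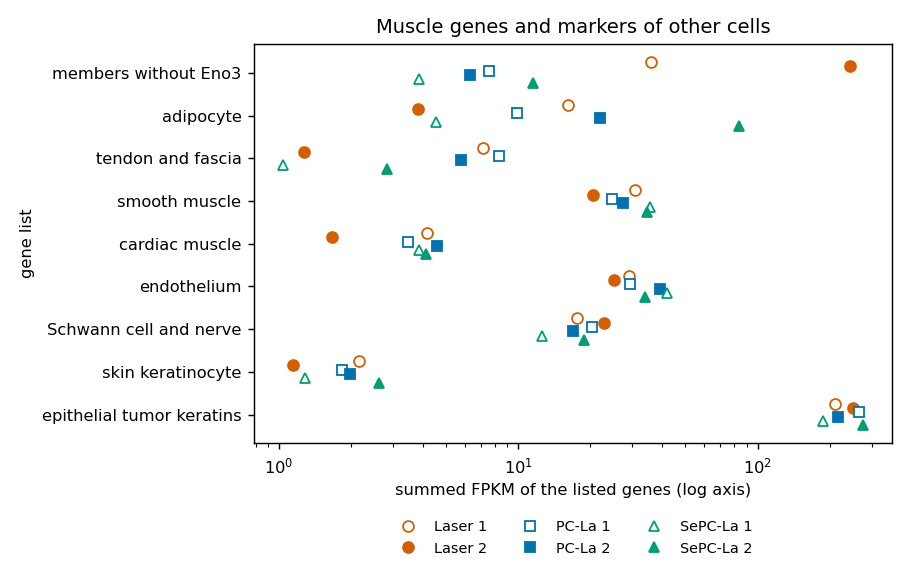
Summed FPKM of the 31 members without Eno3 and of marker lists of other cells, per tumor sample, on a log axis. Circles are Laser, squares PC-La and triangles SePC-La, open for sample 1 and filled for sample 2. The top row spreads from 3.86 to 242.7 FPKM with Laser 2 highest. Laser 2 is the lowest sample for adipocyte (3.80 FPKM), smooth muscle (20.6), cardiac (1.67), endothelium (25.2) and skin keratinocyte (1.14) genes. It is the highest for Schwann cell and nerve genes (22.8).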

How the data were processed

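RNA of 6 tumor samples was sequenced after preparation with a NEBNext Ultra II kit. The authors deposited 1 table of FPKM values. The submitters' processing notes name HISAT2 2.0.5, HTSeq 0.9.1, DESeq 1.30.0 and the build mm9. The unit was inferred from the values: with merged exon lengths of GENCODE M21 (GRCm38), the values of 97.8% of expressed genes were whole reads throughout (tolerance 0.02 read), which could not be done for Neb, Ttn and Xirp2. Positions are those of GRCm38. The strand setting is not given in the sources used here. The labels and the methods differ in wavelength, interval and dose of irradiation, and the labels were followed.

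Members and lists were chosen with earlier results of these data known. log2(FPKM + 1) of all 6 samples was fitted by limma 3.58.1 (R 4.3.3), with a trend and robust estimation, for the 10853 genes that averaged 1 FPKM or more, and p-values were adjusted over all of them by Benjamini-Hochberg. The script was tested on simulated reads with the same spread for all genes and samples. Such a test checks the code only, because the Laser samples here differed far more in the members. All members are given with their values. Statistics are given for 9 members set by rule (Acta1, Myh4, Tnnt3, Ttn, Des, Atp2a1, Pvalb, Ckm and Mb) and for those meeting the criterion. Eno3, Lmod2, Tpm1, Tpm2, Cryab, Fhl1, Cox6a2, Eda2r and other genes outside the members were named after their values were seen, or as the highest of their list. Alternatives were another pseudocount, another filter or none, scaling, prior or sample set, and limma-voom on recovered reads.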

Additional observations from a re-analysis of the deposited data

How the results depend on the processing

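The members meeting the criterion numbered 6 in PC-La and 7 in SePC-La against Laser. With no filter on low values PC-La had 10, with a minimum of 5 FPKM the counts were 1 and 2, without robust estimation 10 and 11, with a pseudocount of 0.1 SePC-La had 11, and with quantile normalization, or only the 4 samples compared, it had 4. At an adjusted p under 0.05 both counts were 0. Leaving out each sample gave 1 to 13 and 2 to 12. The ends of both ranges came from fits with 1 sample in a compared group. Such a group has no spread of its own and is assumed to vary like the others. These counts are therefore no test of the members and do not measure how stable the result is. The medians of the 14 members past the filter (-2.03 and -2.04) were -1.18 in both over all 32 members, -3.54 and -3.89 with the smaller pseudocount and -3.25 to -0.67 and -3.42 to -0.76 as samples were left out. The median in SePC-La was -3.12 with the 5 FPKM minimum. With voom on recovered reads, chosen after seeing the data, the medians were -4.27 and -4.51, and 6 of 23 members tested met the criterion in each, Mylpf among them but not Acta1 or Myh4. No direction against Laser of a median or of any of the 14 turned, except for Eno3 in SePC-La. Its 0.15 ranged from -0.37 (without Laser 1) to 0.68 (without Laser 2) and was -0.10 without SePC-La 1. All but 2 of the 14, Mylpf and Eno3, passed the filter only through the Laser samples. For these others, and so for the median, the direction was given by the filter, and its constancy is no support. Column-sum scaling moved the median of all genes in SePC-La to -0.144 against Laser and -0.177 against PC-La. Summed levels without Eno3 were 7.59, 6.30, 3.86 and 11.5 FPKM in PC-La and SePC-La. With Eno3, and each sample scaled to the mean column total, the sums of all 32 were 21.84, 21.75, 32.32 and 30.15 FPKM. Replicate numbers are shared between groups, but deviations of same-numbered samples correlated at 0.086, -0.428 and -0.177, so they were not taken as pairs. With a replicate block the counts were 9 and 10, Atp2a1 among them. Members under 1 FPKM rest on few reads at this depth.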

Other observations

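Among muscle regulators outside the members, values differed by gene, and 3 of 8 atrophy genes and 9 of 17 embryonic and myogenic genes were highest in Laser 2 (20.0% of all genes). The genes named here were chosen after their values were seen. Trim63, the ubiquitin ligase MuRF1 of muscle protein breakdown, stood at 4.39 FPKM in Laser 2 and at 0 in the other 5 samples. Fbxo32, the other classical atrophy ligase, stood at 2.34 and 3.10 FPKM in Laser and at 0.843 to 2.63 in the others. Myf6, the myogenic factor of mature fibers, stood at 0.101 and 1.48 FPKM in Laser and at 0 in the others. Myod1 and Myog, the factors of early myogenesis, reached 0.0305 and 0.152 FPKM in Laser 2 and were at 0 elsewhere.

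The levels of 10774 genes past the filter, outside the members and all the gene lists, were compared with the members across the 6 samples. Of these genes, 42 had a Pearson correlation over 0.95 with the mean log2 level of the 14 members past the filter. The most similar was Gpalpp1 (r = 0.998), at 10.99 and 13.97 FPKM in Laser and 10.0 to 10.5 in the others, and Slc6a6, the taurine transporter (r = 0.99), stood at 33.1 and 50.6 FPKM in Laser and 27.2 to 29.9 in the others. Mustn1, a musculoskeletal protein (r = 0.984), stood at 0.721 and 3.896 FPKM in Laser and 0.336 to 0.649 in the others. With 6 samples, one of them far from the rest, these correlations rest largely on Laser 2 and are given as a description.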
